A study of Homo sapiens with 12 samples.

Results

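Metallothioneins are small, cysteine-rich proteins that hold zinc and copper ions in the cell. The 8 genes followed here are MT1A, MT1E, MT1F, MT1G, MT1H, MT1M, MT1X and MT2A, chosen by name from the 58735 genes of the deposited count table. All 8 were listed there, 7 had reads, and MT1H had 0 counts in all 12 samples. The RNA came from HK-2 cells, an immortalized line of human renal proximal tubular epithelium, in 4 groups of 3 samples. The control group had received water, and no time is stated for it. The iohexol group had been kept for 48 h with iohexol at 75 mg I/mL, an iodinated contrast medium. The cisplatin group had received 5 μM cisplatin, a platinum compound used against tumors, and the vancomycin group 4 mM vancomycin, a glycopeptide antibiotic, both also for 48 h. All cells grew in DMEM/F12 with fetal bovine serum. There was 1 dose and 1 time for each drug, and the labels do not say whether the replicates were separate cultures, so that the p-values measure the spread between these samples, which may be technical. The total count was 14057282 to 18177109 per sample. Of 10 proximal tubule markers, 3 had a mean above 1 CPM in every group and 5 had a mean below it. CPM are counts scaled to the sample total times its TMM factor, a normalization between samples. SLC5A2, among the 3, went down to 0.438 CPM in a vancomycin sample. GGT1 had means of 189.5 CPM in control cells, 147.5 with iohexol, 169.4 with cisplatin and 362.8 with vancomycin. Those of PAX8 were 371.7, 617.2, 131.4 and 407.4 CPM in the same order. Of 5 epithelial markers, 4 were above 1 CPM in every group and CDH1 was below it throughout. The 3 leukocyte markers summed to at most 0.405 CPM. Of 4 fibroblast markers, COL1A1 and DCN were above 1 CPM in every group and COL1A2 was at or near 0. The summed level of the 4 ranged from 37.4 to 47.4 CPM in control cells and from 28.4 to 31.8 CPM after iohexol. It ranged from 50.5 to 54.3 CPM after cisplatin and from 69.4 to 78.3 CPM after vancomycin. COL1A1 had a mean of 30.6 CPM in the control group, 23.6 with iohexol, 48.7 with cisplatin and 41.8 with vancomycin. The mean of DCN was 12.3, 6.22, 2.70 and 30.5 CPM in the same order. With cisplatin COL1A1 was thus higher and DCN lower than in the control group. The 3 endothelial markers summed to at most 4.21 CPM, nearly all of it PECAM1, which was at 1.33 CPM in the control group, 3.80 with iohexol, 1.85 with cisplatin and 0.0831 with vancomycin, while CDH5 and VWF were under 1 CPM throughout. The part of these markers in the results below was not tested.

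Metallothionein genes are transcribed when zinc, copper or cadmium ions enter the cell. The zinc-sensing transcription factor MTF1 binds metal response elements in their promoters, and glucocorticoids and oxidants are also known inducers. In the proximal tubule, the segment that takes up filtered metals, metallothioneins bind cadmium and other heavy metals, and the tubule is also where cisplatin accumulates. MT2A and the MT1 genes encode close variants of the same protein.

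All 8 genes lie in 1 cluster on chromosome 16, annotated as protein coding, and each main transcript has 3 exons. On GRCh38 the order is MT2A (chr16:56608199-56609497), MT1E (chr16:56625475-56627112), MT1M (chr16:56632233-56633986), MT1A (chr16:56638666-56640087), MT1F (chr16:56657694-56660698), MT1G (chr16:56666731-56668065), MT1H (chr16:56669814-56671129) and MT1X (chr16:56682424-56684196). MT1G is on the minus strand and the other 7 genes are on the plus strand.

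The coding sequences show how alike the members are. Each has 183 bases before the stop codon, that is 61 codons, of which 20 (32.8%) encode cysteine, the residue that binds the metal ions. The sequences of MT2A, the member with the most reads, and MT1G, which fell furthest with iohexol, are given here from the annotated transcripts of GENCODE 29, 5′ to 3′ in the sense of the gene, with cysteine codons in capitals.
MT2A: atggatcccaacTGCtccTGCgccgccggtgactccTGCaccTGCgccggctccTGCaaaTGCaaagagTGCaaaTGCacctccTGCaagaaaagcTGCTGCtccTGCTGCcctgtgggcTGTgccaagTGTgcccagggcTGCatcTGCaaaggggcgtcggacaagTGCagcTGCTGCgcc
MT1G: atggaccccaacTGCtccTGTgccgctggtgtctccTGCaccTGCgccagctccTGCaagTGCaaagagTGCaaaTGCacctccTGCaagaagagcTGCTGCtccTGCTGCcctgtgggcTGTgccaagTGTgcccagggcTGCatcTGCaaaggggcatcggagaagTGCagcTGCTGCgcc
The 20 cysteine codons stand at the same places in both sequences. MT1G and MT2A were identical at 174 of 183 bases (95.1%), the most of the 28 pairs of members. The lowest identity of any pair was 88.5%, between MT1F and MT1X. Over whole transcripts, the share of 31-base sequences that also occur in another gene was 8.33% for MT1F, 12.2% for MT2A, 15.3% for MT1E, 18.8% for MT1M, 18.9% for MT1A, 31.4% for MT1G, 37.1% for MT1H and 48.1% for MT1X. For 100-base sequences the share was 0% for 6 of the members, 3.36% for MT1H, shared with MT1HL1, and 19.1% for MT1X, shared with AC026461.1. A read that lies inside a shared stretch could have been assigned to more than 1 gene, and the 0 counts of MT1H carry this limit too. AC026461.1 overlaps MT1X on the same strand over 1727 of the 1773 bases of MT1X, and it was listed with 0 counts in every sample. How reads in this overlap were counted is not given, so the level of MT1X carries this limit. The part of the overlap in the MT1X values was not tested.

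The promoters show the metal response elements. A table of RefSeq promoters on GRCh38.p14 held 3 of the 8 members. The 250 bases before the RefSeq start of each are printed in the sense of the gene, on the plus strand, with matches to the core of the metal response element (TGCACNC or TGCGCNC, searched on both strands) in capitals.
MT2A, chr16:56608334-56608583: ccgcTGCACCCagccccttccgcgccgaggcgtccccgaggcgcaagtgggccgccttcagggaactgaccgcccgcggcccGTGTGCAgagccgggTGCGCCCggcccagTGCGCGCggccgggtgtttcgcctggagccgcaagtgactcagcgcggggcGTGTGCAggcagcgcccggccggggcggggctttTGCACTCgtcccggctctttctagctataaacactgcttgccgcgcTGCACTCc
MT1X, chr16:56682220-56682469: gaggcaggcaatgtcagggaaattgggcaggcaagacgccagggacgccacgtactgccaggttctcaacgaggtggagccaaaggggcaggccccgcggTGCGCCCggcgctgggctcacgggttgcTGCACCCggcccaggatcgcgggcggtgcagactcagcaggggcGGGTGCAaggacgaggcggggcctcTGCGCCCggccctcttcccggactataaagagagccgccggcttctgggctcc
MT1H, chr16:56669564-56669813: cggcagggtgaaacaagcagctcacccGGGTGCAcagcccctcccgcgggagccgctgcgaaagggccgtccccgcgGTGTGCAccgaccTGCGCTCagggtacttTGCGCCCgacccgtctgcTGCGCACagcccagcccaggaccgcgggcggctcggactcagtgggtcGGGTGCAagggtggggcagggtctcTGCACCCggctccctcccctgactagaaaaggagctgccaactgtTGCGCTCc
The MT2A window held 7 matches, the MT1X window 4 and the MT1H window 8. Of 35116 promoter windows of the same length, 24.8% held at least 1 match, 0.37% at least 4 and 0.0313% at least 7. The TATA box (TATAAA) was found in the windows of MT2A and MT1X, and in 10.7% of all windows. MT2A also held 1 match to the AP-1 site (TGACTCA), found in 4.2% of all windows. That site overlapped a match to the core of the antioxidant element (TGACNNNGC), which MT1X also held and which was found in 10.9% of all windows. The GC box (GGGCGG) matched 2 times in MT2A, 2 times in MT1X and 1 time in MT1H, against at least 1 match in 42.6% and at least 2 in 24.3% of all windows. The MT2A window lies inside the span of MT2A in the deposited table, which starts further upstream than the RefSeq start. The end of the MT1X window, with its TATA box match, also lies inside the deposited span of MT1X, which starts at 56682424. A match to these letters is not a measured binding site. MT1H had the most matches of the 3 and was the member with 0 counts, while MT2A had 7 matches and the most counts of the family.

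**Figure D1:**
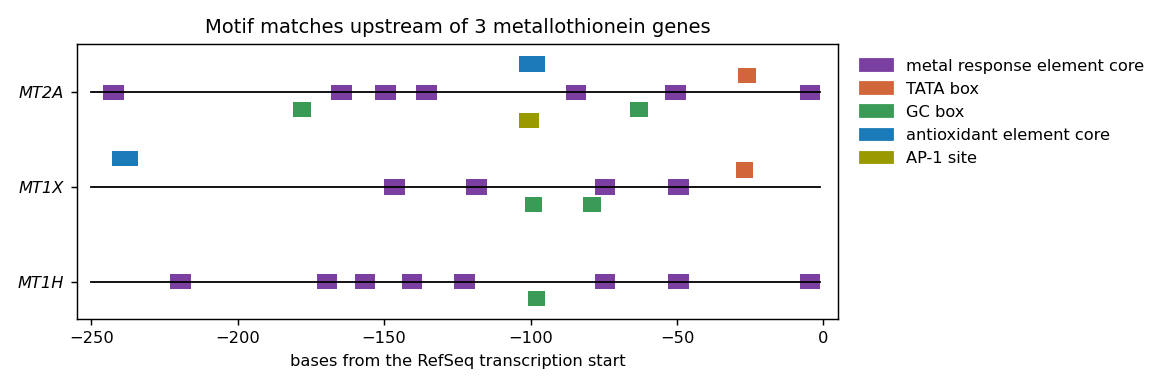
Positions of motif matches in the 250 bases before the RefSeq start of MT2A, MT1X and MT1H, with the distance from the start in bases on the horizontal axis and 1 line per gene. The metal response element core is matched 7, 4 and 8 times in that order, and the matches reach from the start back to 246 bases before it in MT2A.

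In the control group the 7 detected members covered a wide range of levels. MT2A, the main metallothionein of most human cells, had 1144, 1078 and 913 CPM in the control samples 1 to 3, where each library total was first multiplied by its TMM factor. MT1E had 218, 221 and 181 CPM. These 2 genes held 77.2% ± 0.642 (MT2A, SD, n = 3) and 15.3% ± 0.447 (MT1E) of all counts on the 8 genes. MT1F had 52.7, 55.0 and 43.5 CPM and MT1G had 22.8, 22.2 and 15.5 CPM. MT1X had 21.4, 19.1 and 16.7 CPM and MT1M had 11.8, 12.7 and 10.5 CPM. MT1A was the lowest detected member, with 1.52, 1.51 and 1.18 CPM, or 18 to 24 counts. Control sample 3 had the lowest level of the 3 for each of the 7 genes. For MT1H, the floor of 3 counts allows up to 0.177 to 0.218 CPM, a limit that covers counting error only.

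To compare levels between genes they were divided by length. In RPKM (counts per kilobase of the deposited gene length, scaled to the total count without the TMM factor), the control levels were 779 ± 84.8 for MT2A, 190 ± 19.4 for MT1E, 26.0 ± 5.11 for MT1G, 25.8 ± 2.92 for MT1F, 12.0 ± 1.04 for MT1M, 10.4 ± 1.25 for MT1X and 3.43 ± 0.446 for MT1A (SD, n = 3). MT1G and MT1F differed by less than the spread of the samples, while MT1M and MT1X differed by more than either SD. With the length of the main transcript instead, MT1F was at 70.7 ± 8.0, MT1G at 48.0 ± 9.44, MT1X at 41.0 ± 4.91 and MT1M at 13.6 ± 1.19, so that the order in the middle of the family depends on which length is used. MT2A, MT1E and MT1A kept their places as highest, next and lowest.

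**Figure D2:**
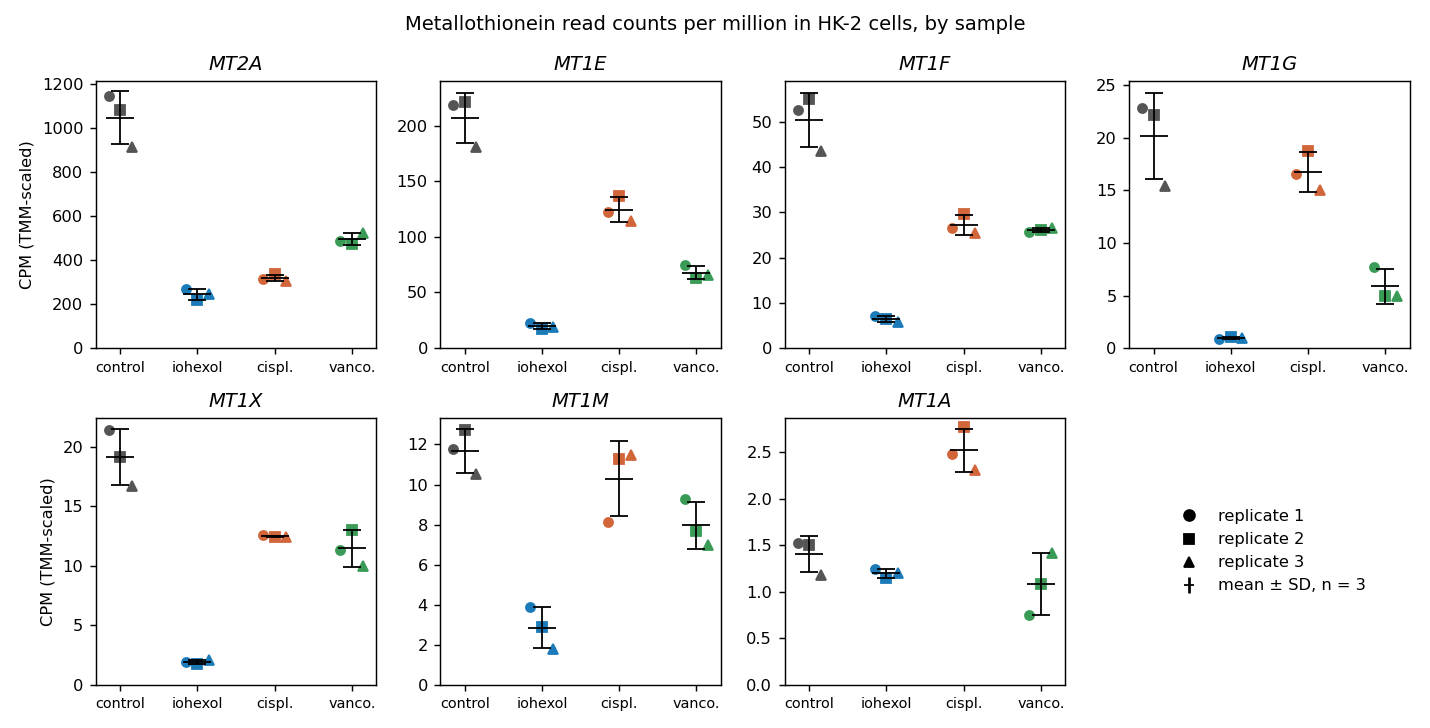
Level of the 7 detected metallothioneins in each of the 12 samples, in CPM on a linear axis that starts at 0, with 1 panel per gene, the replicate number as the symbol, and the mean ± SD of 3 samples as a bar. The iohexol samples lie below all control samples in every panel but MT1A, where they sit between 1.15 and 1.24 CPM, and the cisplatin samples of MT1A lie above the controls.

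Each drug was compared with the same 3 control samples in edgeR (quasi-likelihood test), with Benjamini-Hochberg adjustment over every gene that entered the fit. A gene is said to have risen or fallen where the adjusted p was under 0.05, and it is called a DEG where the log2 fold change was also above 1 or below -1. Because the controls are shared, the 3 comparisons are not independent. In bulk RNA, fewer cells with a transcript and less of it per cell cannot be told apart.

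With iohexol, 6 of the 7 tested metallothioneins fell, and all 6 were down-regulated DEGs, where 1.25% of the 15657 genes tested were. The same 6 had all 3 iohexol samples below all 3 control samples, as did 19.4% of all genes. The median log2 fold change of the 7 members was -2.96, against 0.01 over all genes. MT1G, MT1E, MT1X, MT1F, MT2A and MT1M stood at the places 1, 3, 4, 7, 17 and 22 from the lowest log2 fold change of all genes tested.

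MT1G had 0.829, 1.09 and 0.935 CPM in the iohexol samples, from 12 to 17 counts. This was 20.7-fold lower than in the control group, with a log2 fold change of -4.37 ± 0.229 (SE, n = 3 per group) and an adjusted p of 2.07e-07 in edgeR's test. MT1E, the MT1 gene with the most reads, had 22.6, 17.3 and 19.2 CPM, which was 10.4-fold lower (log2 fold change -3.38 ± 0.127, edgeR adjusted p = 1.68e-08). The highest of these samples was far below the lowest control sample. MT1X had 1.94, 1.73 and 2.07 CPM and was 9.83-fold lower (log2 fold change -3.30 ± 0.176, edgeR adjusted p = 2.07e-07). MT1F had 7.05, 6.39 and 5.75 CPM and was 7.78-fold lower (log2 fold change -2.96 ± 0.142, edgeR adjusted p = 1.06e-07). These 4 MT1 genes thus kept a share between 0.0483 and 0.129 of their control level.

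MT2A and MT1M fell less. MT2A had 269, 217 and 246 CPM, which was 4.23-fold lower (log2 fold change -2.08 ± 0.109, edgeR adjusted p = 2.07e-07). MT1M had 3.87, 2.88 and 1.8 CPM and was 4.04-fold lower (log2 fold change -2.02 ± 0.231, edgeR adjusted p = 8.89e-05). Neither gene's iohexol samples overlapped the controls, and MT1M varied more between iohexol samples, in proportion to its mean, than any other of the 6, from 27 to 56 counts. MT1A, the member next to MT1M on the chromosome, had 18 counts in each of the 3 iohexol samples and 18, 21 and 24 counts in the control samples. Its log2 fold change was -0.21 with a 95% confidence interval of -0.88 to 0.46 and an edgeR adjusted p of 0.678, an interval that does not reach the change of any of the other 6.

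With cisplatin, 4 members fell and MT1A rose, but only MT2A was a DEG, where 8.72% of the 15876 genes tested were down-regulated DEGs. By the adjusted p alone 30.6% of all genes fell and 29.2% rose, so that the number of members that fell is read against a large background. Of these 5, MT1A had all cisplatin samples above all controls, as did 32.6% of all genes, and the other 4 had all of them below, as did 32.5%. Up-regulated DEGs made up 7.62% of all genes and 0 of the members. The median log2 fold change of the 7 members was -0.61. MT2A had 313, 334 and 306 CPM, 3.29-fold below the control group (log2 fold change -1.72 ± 0.074, edgeR adjusted p = 2.65e-12). The 3 samples were close to each other and far below the lowest control sample at 913 CPM.

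The MT1 genes changed less with cisplatin. MT1F had 26.5, 29.7 and 25.5 CPM (log2 fold change -0.89, edgeR adjusted p = 6.01e-07) and MT1E had 122, 137 and 115 CPM (-0.73, edgeR adjusted p = 6.5e-07). MT1X had 12.5, 12.4 and 12.4 CPM (-0.61, edgeR adjusted p = 0.000235). All 3 genes lay below every control sample and kept a share between 0.54 and 0.653 of the control level. MT1G had 16.5, 18.7 and 15 CPM and MT1M had 8.12, 11.3 and 11.5 CPM, and both overlapped the controls. The 95% confidence intervals of their log2 fold changes were -0.56 to 0.03 for MT1G and -0.49 to 0.12 for MT1M. MT1A had 2.48, 2.77 and 2.30 CPM, from 39 to 45 counts, above every control sample (1.79-fold higher, log2 fold change 0.84 ± 0.274, edgeR adjusted p = 0.014). Where counts were scaled by the library size only, the median of all genes moved up by 0.22 on the log2 scale, MT1A passed the DEG threshold at 1.06 and MT1M turned to 0.03.

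With vancomycin, 6 of 7 members fell and 3 were down-regulated DEGs, where 7.65% of the 15819 genes tested were, and 28.8% fell by the adjusted p alone. The median log2 fold change of the 7 members was -0.99, against -0.01 over all genes. MT1G had 7.76, 4.93 and 4.93 CPM and was 3.52-fold lower (log2 fold change -1.82 ± 0.184, edgeR adjusted p = 9.91e-09). MT1E had 74.3, 63.3 and 66.0 CPM and was 3.13-fold lower (log2 fold change -1.65 ± 0.101, edgeR adjusted p = 1.45e-12). MT2A had 487, 474 and 524 CPM and was 2.17-fold lower (log2 fold change -1.12 ± 0.093, edgeR adjusted p = 3.47e-10). In each of the 6 genes that fell, all vancomycin samples lay below all control samples, as in 29.3% of all genes.

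MT1F, MT1X and MT1M fell without reaching the DEG threshold. MT1F had 25.6, 26.1 and 26.5 CPM, a log2 fold change of -0.99 ± 0.112 (edgeR adjusted p = 6.12e-08) that stood just inside the threshold and passed it with the library size only (-1.07), with no filter on low counts (-1.01) or without control replicate 3 (-1.10). MT1X had 11.3, 13.0 and 9.98 CPM (-0.78, edgeR adjusted p = 4.86e-05) and MT1M had 9.26, 7.70 and 6.96 CPM (-0.59, edgeR adjusted p = 0.00276). MT1A had 12, 16 and 23 counts and overlapped the controls, with a 95% confidence interval of -1.19 to 0.36 for its log2 fold change.

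**Figure D3:**
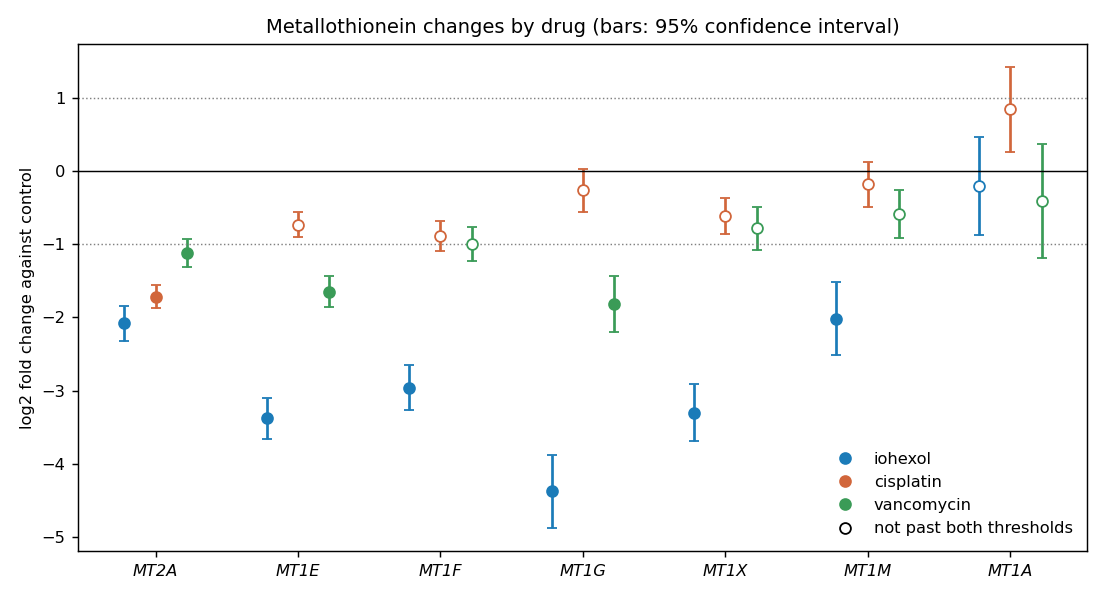
Log2 fold change against control of the 7 tested metallothioneins with each drug, as points with the 95% confidence interval from edgeR, filled where the gene was a DEG and open where it was not, with dotted lines at the thresholds of 1 and -1. The iohexol points of 6 genes run from -2.02 to -4.37, the cisplatin point of MT2A at -1.72 stands apart from the other cisplatin points, and MT1A is the gene whose points stay above -1 with all 3 drugs.

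The drugs were also compared with each other, in a fit of all 12 samples. The doses and the compounds differ, so that these are differences between 3 treatments as given. Cisplatin samples were higher than iohexol samples in all 7 members by the adjusted p, as were 26% of all genes, and 6 were DEGs, where 6.11% of the 17073 genes tested were up-regulated DEGs. The difference was 17.4-fold for MT1G (log2 fold change 4.12 ± 0.242, edgeR adjusted p = 2.18e-11), 6.51-fold for MT1X (edgeR adjusted p = 5.9e-11) and 6.33-fold for MT1E (2.66 ± 0.114). It was 4.26-fold for MT1F (2.09 ± 0.126), 3.61-fold for MT1M (1.85 ± 0.216) and 2.09-fold for MT1A (1.07 ± 0.294), whose value was 0.99, just under the DEG threshold, without cisplatin replicate 2. MT2A differed by only 1.30-fold (log2 fold change 0.38, 95% confidence interval 0.19 to 0.57, edgeR adjusted p = 0.00144). The MT1 genes thus separated iohexol from cisplatin by larger folds than MT2A did.

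Vancomycin samples were also higher than iohexol samples, in 6 of 7 members, all of them DEGs, where 10.6% of all genes were up-regulated DEGs and 29% were higher by the adjusted p. The log2 fold changes were 2.61 ± 0.268 for MT1G, 2.58 ± 0.171 for MT1X, 2.03 ± 0.127 for MT1F, 1.79 ± 0.114 for MT1E, 1.48 ± 0.221 for MT1M and 1.02 ± 0.091 for MT2A. MT2A was close to the threshold and fell under it with the library size only (0.81), without iohexol replicate 2 (0.94) or without vancomycin replicate 3 (0.98). For MT1A the difference was -0.14 with a 95% confidence interval of -0.82 to 0.53, and it turned to 0.06 without vancomycin replicate 1.

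Vancomycin and cisplatin differed in both directions within the family. MT2A was higher with vancomycin (1.56-fold, log2 fold change 0.64 ± 0.09, edgeR adjusted p = 3.64e-06), while MT1G (-1.51 ± 0.182), MT1A (-1.21 ± 0.296) and MT1E (-0.88 ± 0.104) were lower. By the adjusted p 34.7% of all genes were higher and 30% were lower. MT1G and MT1A were DEGs, 2 of 7 members where 12.2% of all genes were down-regulated DEGs. Without vancomycin replicate 1 the MT1A difference was -0.997, just under the threshold in size, and 1 member was left. For MT1F and MT1X no difference was detected, with 95% confidence intervals of -0.29 to 0.17 and -0.41 to 0.15, and for MT1M the interval was -0.76 to 0.03. This comparison moved most with the scaling: with the library size only the median of all genes moved by -0.34 on the log2 scale, and MT1E passed the DEG threshold at -1.21.

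Summed over the 8 genes, the family had 1473, 1410 and 1181 CPM in the control samples, or 1354 ± 153 (SD, n = 3). It had 306.9, 247.9 and 277.1 CPM with iohexol, which was 20.5% of the control mean. The sum was 501.3, 545.9 and 487.3 CPM with cisplatin (37.8% of control) and 616.0, 590.6 and 640.0 CPM with vancomycin (45.4% of control). The 4 groups did not overlap on this scale, but with the library size only the cisplatin samples (547.9 to 613.1 CPM) and the vancomycin samples (522.5 to 571.5 CPM) did. Iohexol was lowest and the control highest under each scaling tried, and the means of cisplatin and vancomycin stood in the other order with the library size only (43.9% and 41.9%) and per gene length (42.7% and 38.5%). No test was run on the sum, since its members were chosen with results known.

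The make-up of the family differed between the groups and does not depend on the scaling between samples. MT2A held between 76.5% and 77.7% of the family's counts in control cells. Its share was between 87.7% and 88.8% in the iohexol group, between 61.2% and 62.8% in the cisplatin group and between 79.1% and 81.9% in the vancomycin group, and none of these ranges overlapped. MT1E moved the other way, with 15.3% of the counts in the control group, 7.09% with iohexol, 24.3% with cisplatin and 11.0% with vancomycin. Without MT2A, the MT1 genes together had 309.5 ± 35.8 CPM in the control group, 33.0 ± 3.92 with iohexol, 193.8 ± 15.9 with cisplatin and 120.3 ± 7.48 with vancomycin. The MT1 sum was therefore at 10.7%, 62.6% and 38.9% of control, whereas the fitted ratio of MT2A to control was 0.237, 0.304 and 0.46 with iohexol, cisplatin and vancomycin.

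**Figure D4:**
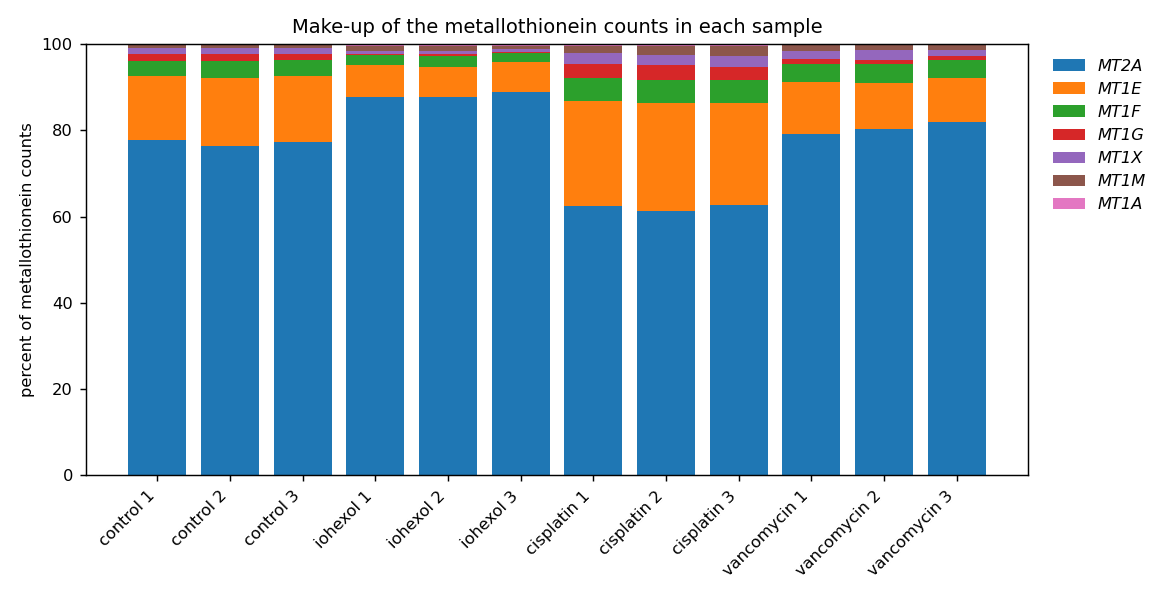
Share of each detected metallothionein in the counts of the family, in percent, with 1 stacked bar per sample. MT2A takes 61.2% to 62.8% in the cisplatin samples and 87.7% to 88.8% in the iohexol samples, and MT1E is the gene that takes up most of the difference, with means of 24.3% and 7.09%.

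Across the 12 samples the members fell into patterns. The log2 CPM of MT1E, MT1F, MT1G, MT1M and MT1X were close to each other, with Pearson's r of 0.936 to 0.984 between pairs. MT2A had an r of 0.66 to 0.837 with these 5, and MT1A an r of -0.145 to 0.489 with the other 6 members. The 12 points fall in 4 groups of 3 replicates, and neighbouring members share some of their sequence, so that these values are a description only. Outside the family, the gene most like the family sum among 17065 genes was JAG1, a Notch ligand, with an r of 0.981. It had 668 ± 5.39 CPM in the control group, 164 ± 9.68 with iohexol, 264 ± 10.2 with cisplatin and 371 ± 23.3 with vancomycin. PPP1R14C (r = 0.94), FLRT2 (r = 0.939) and TUBA1B (r = 0.939) were among the next. JAG1 was also the gene most like MT2A (r = 0.973). For MT1G (r = 0.99) and MT1E (r = 0.982) it was EFEMP1, an extracellular matrix protein. For MT1M it was SOX18, a transcription factor (r = 0.969), and for MT1A it was MARS2, the methionyl-tRNA synthetase of mitochondria (r = 0.965).

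Other genes of metal handling were read beside the metallothioneins. SLC30A1 encodes the zinc exporter ZnT1 of the plasma membrane, which like the metallothioneins is a target of MTF1. Its level was between 165.5 and 186.0 CPM in control cells and between 191.4 and 194.4 CPM in the cisplatin group. In the iohexol group it was between 65.9 and 77.1 CPM, and in the vancomycin group between 84.8 and 105.0 CPM. It was 2.37-fold lower with iohexol (log2 fold change -1.25 ± 0.095, edgeR adjusted p = 3.48e-06) and 1.88-fold lower with vancomycin (-0.91 ± 0.096, edgeR adjusted p = 1.81e-08). With cisplatin it was 1.11-fold higher (0.15 ± 0.063, edgeR adjusted p = 0.0461). SLC30A1 was the only DEG among the 6 zinc exporters tested of 10 with iohexol, where 1.25% of all genes were down-regulated DEGs. None was a DEG with cisplatin or vancomycin, where 8.72% and 7.65% of all genes were down-regulated and 7.62% and 10.8% up-regulated DEGs. By the adjusted p, 1 of the 6 fell with iohexol (9.77% of all genes) and 3 with vancomycin (28.8%), while 0 rose with either. With cisplatin 1 rose and 1 fell, against 29.2% and 30.6% of all genes. MTF1 itself did not pass the test in any drug against control, and the 95% confidence interval of its log2 fold change was between -0.33 and 0.13 in the iohexol group, between -0.07 and 0.28 in the cisplatin group and between -0.47 and 0 in the vancomycin group.

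Among the 11 zinc importers tested of 14, none was a DEG with iohexol. SLC39A11 was lower with cisplatin (log2 fold change -2.48) and SLC39A7, a zinc channel of the endoplasmic reticulum and Golgi, was higher with vancomycin (1.00). Up-regulated DEGs made up 7.62% of all genes with cisplatin and 10.8% with vancomycin, and down-regulated DEGs 8.72% and 7.65%. By the adjusted p, 2 importers rose and 0 fell with iohexol, against 11.2% and 9.77% of all genes. With cisplatin 3 rose and 4 fell (29.2% and 30.6% of all genes), and with vancomycin 3 rose and 2 fell (29% and 28.8%). Of 10 genes of copper handling, 8 were tested with iohexol and none was a DEG. By the adjusted p, 1 of these 8 rose (ATP7A, 0.93) and 0 fell, against 11.2% and 9.77% of all genes. With cisplatin 9 were tested, of which 6 rose and 3 fell, against 29.2% and 30.6% of all genes, and the DEGs were SLC31A2 (2.14) and the copper pump ATP7B (-1.33). With vancomycin 5 of the 9 rose and 2 fell, against 29% and 28.8% of all genes, and SLC31A2 was the only DEG (2.81). Both SLC31A2 values rest on low counts, with 1 to 5 in the control samples, 13 to 16 with cisplatin and 18 to 32 with vancomycin. Of 9 genes that hold the glucocorticoid receptor and its known targets, 8 were tested, and the DEGs were KLF9 (2.00) and SGK1 (-1.14), both with vancomycin. In that comparison 10.8% of all genes were up-regulated and 7.65% down-regulated DEGs. With iohexol, 4 of these 8 genes fell and 0 rose by the adjusted p, where 9.77% of all genes fell, with a median log2 fold change of -0.38. With cisplatin 3 of the 8 rose and 3 fell (median 0.13), against 29.2% and 30.6% of all genes. With vancomycin 5 rose and 2 fell (median 0.39), against 29% and 28.8% of all genes.

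Genes that oxidants, electrophiles and heavy metals are known to induce moved apart from the metallothioneins with vancomycin. All 10 genes of this list rose and 7 were DEGs, where 29% of all genes rose and 10.8% were up-regulated DEGs. HMOX1, the heme oxygenase, had a log2 fold change of 3.47 ± 0.103 (edgeR adjusted p = 4.33e-18) and SRXN1, the sulfiredoxin, of 3.13 ± 0.246 (edgeR adjusted p = 1.35e-10). HSPA1B and HSPA1A, heat shock proteins of the HSP70 family, were at 2.23 and 2.03, and NQO1, SLC7A11 and TXNRD1 were at 1.55, 1.22 and 1.13. HSPA1A and HSPA1B are near-identical, and the split of reads between them is uncertain. In the same samples 6 of 7 metallothioneins fell. With iohexol 2 of the 10 rose, where 11.2% of all genes did, 2 fell and none was a DEG, and with cisplatin 5 rose, 3 fell and SLC7A11 was the only DEG (-1.54), where 29.2% of all genes rose, 30.6% fell and 8.72% were down-regulated DEGs.

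**Figure D5:**
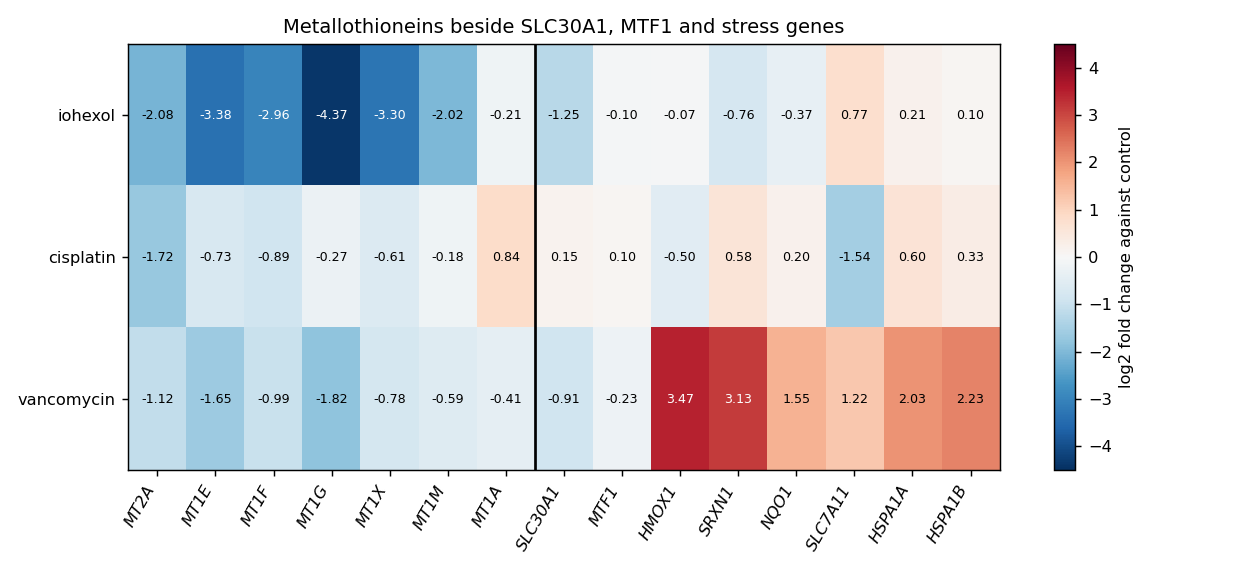
Log2 fold change against control, as numbers and color, of the 7 tested metallothioneins (left of the line), SLC30A1, MTF1 and 6 of the genes that metals induce, with 1 row per drug. In the vancomycin row the metallothioneins run from -0.41 to -1.82 while HMOX1, SRXN1, NQO1, SLC7A11, HSPA1A and HSPA1B run from 1.22 to 3.47, and in the iohexol row 6 metallothioneins and SLC30A1 are below -1. These 6 induced genes are the ones with the highest vancomycin values of their list. TXNRD1, DNAJB1, GCLM and GCLC are not drawn and were at 1.13, 0.95, 0.93 and 0.81 with vancomycin.

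The genes on both sides of the cluster on chromosome 16 were examined for a shift of the region as a whole. None of the 8 tested of 9 was a DEG with iohexol, where 1.25% of all genes were down-regulated DEGs, so that 0 of 8 is near that share. By the adjusted p, 1 of the 8 rose and 1 fell, against 11.2% and 9.77% of all genes. The median log2 fold change of the 8 was 0.03, from -0.30 to 0.88, while the 6 metallothioneins between them were at -2.02 to -4.37. With cisplatin GNAO1 was lower (-1.68), where 8.72% of all genes were down-regulated DEGs. This value rests on 8 to 20 counts with cisplatin and 39 to 51 in the control samples. With vancomycin GNAO1 and CETP were higher (2.15 and 1.81), where 10.8% of all genes were up-regulated DEGs. The CETP value rests on low counts, with 1 to 8 in the control samples and 11 to 28 with vancomycin. With cisplatin 5 of the 8 flanking genes fell, HERPUD1 among them at -0.84, where 30.6% of all genes fell. With vancomycin 5 of 9 fell and 2 rose, where 28.8% of all genes fell and 29% rose.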

How the data were processed

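The authors deposited raw counts of reads for each of 58735 genes and 12 samples. Per the labels, mRNA was captured on poly-T beads before an NEBNext library preparation, and the submitters' processing notes name CASAVA 1.8, fastp, HISAT2 2.0.5, featureCounts 1.5.0-p3 and DESeq2 1.20.0. The strand setting and the treatment of reads that match several genes are not given in the sources used here. Gene positions and lengths came with the deposited table (GRCh38), transcripts from GENCODE 29 and promoters from RefSeq (GRCh38.p14).

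Groups came from the sample titles. Tests used edgeR 4.0.16 (R 4.3.3; TMM, estimateDisp, glmQLFit, glmQLFTest), in a fit of each drug with the controls and, for drug against drug, in a fit of all 12 samples. Genes passed filterByExpr (minimum count 10, minimum total 15). The standard error was the size of the log2 fold change over the square root of F. Log2 CPM used a prior count of 2. DESeq2 1.42.0, limma-voom (limma 3.58.1), RLE factors, library size only, no filter, a replicate block, the other choice of samples in the fit and leaving out each sample were the alternatives. The steps were tested on simulated counts.

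The 8 members and all lists were chosen with earlier results of these data known. The genes named are the 8 members, the list members that were DEGs with a few values beside them, and the genes most correlated with the family or a member. A few items under this rule were left out of the text and are not reported here. Some values of non-DEGs (HERPUD1, SLC30A1 outside iohexol) were chosen after they were seen. Replicates of a group differed by more than sampling noise (chi-square per degree of freedom 2.34 to 17.5). Figures were drawn with matplotlib 3.10.9.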

Additional observations from a re-analysis of the deposited data

How the results depend on the processing

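Of 672 values recomputed under alternatives, 659 kept their direction and their side of the threshold or, for counts and sums, stayed near the reported value, 5 lost the call, 5 gained it and 3 turned their sign. With the library size only, 2 members were DEGs with cisplatin in place of 1, and the family sum with cisplatin was 43.9% of control. Per gene length the sum was 42.7% of control with cisplatin and 38.5% with vancomycin. The sign turned for MT1M with cisplatin under the library size only (0.034), for MT1A between vancomycin and iohexol without vancomycin replicate 1 (0.063; -0.392 at the other end, without vancomycin replicate 3) and for MT1F between vancomycin and cisplatin without cisplatin replicate 2 (0.002; -0.108 at the other end, without cisplatin replicate 3), all 3 of them differences that did not pass the test. MT1E between vancomycin and cisplatin passed the threshold with the library size only (-1.21), and MT1A between cisplatin and iohexol was at 0.99 without cisplatin replicate 2. Leaving out 1 sample in turn gave 1 to 2 DEGs between vancomycin and cisplatin, with 1 only without vancomycin replicate 1. The cause of these changes was not tested. Samples with the same replicate number showed no sign of deviating together (mean r -0.0209 over 18 pairs, from -0.184 to 0.103, against 0.0106 over the other 36). With 3 samples per group a weak pairing could be missed. A replicate block gave the same counts of DEGs (6, 1 and 3 against control, and 6, 6 and 2 between drugs). The depth limits MT1H, the 18 to 24 control counts of MT1A and the 12 to 17 iohexol counts of MT1G most.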

Other observations

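Of 13 further metallothionein genes and pseudogenes, only MT2P1, a processed pseudogene on chromosome 4 (chr4:68376323-68376505, plus strand), had enough counts to be tested against control. It had 25, 21 and 34 counts in the vancomycin samples, 2, 3 and 0 in the control samples, 0, 1 and 0 with iohexol and 0, 3 and 0 with cisplatin. Its log2 fold change with vancomycin was 3.80 ± 0.595 (edgeR adjusted p = 7.8e-06), a value that rests on 5 control counts in all, and MT2A fell in the same samples. Of its 31-base sequences 51.6% also occur in another gene, MT2A among them, and of its 100-base sequences 0% do. The part of reads from MT2A in the result was not tested. MT1XP1, a processed pseudogene on chromosome 1, had 7, 6 and 2 counts with vancomycin and at most 1 in any other sample. MT3 and MT4, metallothioneins of brain and of stratified epithelium, had 0 counts in all samples.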
